A study of Mus musculus with 3 samples.

Results

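The 46 genes described here serve DNA replication, mitosis and the G1 phase that precedes them, and were chosen by symbol, from a list drawn up with earlier results of these data known. They are 46 of the 55536 annotated genes in the gene tables, and each symbol matched 1 row of the gene table in all 3 libraries. The list holds 20 S phase genes, which build or license the replication machinery or open S phase, 21 mitotic genes, and 5 G1 genes, the D-type cyclins with their kinases. All 3 libraries are ribosomal RNA-depleted total RNA from a chromatin fraction. The cells were macrophages grown from bone marrow, a primary culture, of the C57BL/6J mouse strain. Lipid A, the part of lipopolysaccharide sensed by Toll-like receptor 4, was given at 100 ng/ml for 12 h and washed out for 12 h, and was given again at 100 ng/ml for 120 min. The libraries are biological replicates 1, 2 and 3 of that treatment, and the RNA put into them was 1 µg, 250 ng and 500 ng in turn. The labels do not say whether they came from separate animals, and age and sex were not collected, so each SD is the spread between these libraries and may be technical. Untreated cells were not analysed here, so the values are levels after treatment, without a comparison to cells that lacked it.

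A dividing cell first commits in G1, when cyclin D bound to CDK4 or CDK6 phosphorylates the retinoblastoma protein and frees E2F factors, which switch on the S phase genes. The MCM helicase, loaded by CDC6 and CDT1, then opens the DNA for polymerase alpha, the PCNA clamp and its RFC loader. Genes of mitosis are switched on later, largely through promoter elements named CHR and CCAAT, bound by the MuvB and NF-Y complexes. Marrow macrophages divide in response to colony-stimulating factor 1, and lipopolysaccharide is known to halt that division. RNA on chromatin is enriched for transcripts still being made, so these values stand closer to synthesis than those of whole-cell RNA.

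Total expected counts (read counts shared out among transcripts by a model) were 10293545, 17820066 and 17548564 in replicates 1, 2 and 3. Of the 15 macrophage markers, all had at least 1 TPM (a level scaled for transcript length, with a fixed sum over all genes of a library) in every library, and their summed level ran from 1530 to 2170 TPM. Of 51 markers of 9 other cell types, 2 did, Cd4 and Alas2, and 15 had no count in any library. Marrow progenitors divide rapidly, and 0 of their 10 markers reached 1 TPM in all 3 libraries; the summed level was 2.21, 6.17 and 6.38 TPM in replicates 1, 2 and 3, with Elane and Ctsg at 0 counts. Of that sum Myb made up 0.80, 4.30 and 4.81 TPM, lowest in replicate 1, and its part in the results below was not tested. Replicate 1 stood apart in other ways too: the biological coefficient of variation over all 3 libraries was 29.8%, and 16.4% without it. Over long genes, effective length fell short of annotated length by a median of 150, 257 and 251 bases in replicates 1, 2 and 3. Rows outside the annotation held 1.9%, 0.39% and 0.52% of counts. The part of these differences in the results below was not tested. Short genes, under 200 bases of effective length, held 65.7%, 54.0% and 59.2% of all TPM in replicates 1, 2 and 3 in that fixed sum.

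S phase genes stood above mitotic genes in each library. The median S phase gene was at 1.83, 3.79 and 2.76 TPM in replicates 1, 2 and 3, and the median mitotic gene at 0.68, 0.47 and 0.47 TPM. The difference between the class medians of log2(TPM + 0.1) was 1.30, 2.76 and 2.29, with a mean of 2.12 ± 0.74 (SD, n = 3, as for every ± below), a 4.34-fold gap on that scale. In RNA from a bulk of cells, fewer cycling cells and less RNA per cell cannot be told apart. The gap was smallest in replicate 1, where in these values the S phase median was lowest and the mitotic median highest. In all 3 libraries 17 of the 20 S phase genes lay above the mitotic median, the exceptions being Mcm2, Rrm2 and Cdc6. Mki67 was the 1 mitotic gene above the S phase median in all 3. No test was run on the class medians, because the genes were picked by hand.

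Of the 20 S phase genes 15 reached at least 1 TPM in all 3 libraries, and of the 21 mitotic genes 4 did. The same holds for 42.0% of all protein-coding genes (9245 of 22028). All 5 G1 genes did, so 24 of the 46 passed in total. A further 13 of the 21 mitotic and 2 of the 20 S phase genes were under 1 TPM in every library. So were 11653 of the 22028 protein-coding genes. Neither class was abundant: 2 S phase genes (Pcna, Rfc3), 1 mitotic gene (Mki67) and 2 G1 genes (Cdk6, Cdk4) were higher in all 3 libraries than the median of protein-coding genes that passed 1 TPM, beside 18.5% of all protein-coding genes. That median was 9.95, 13.9 and 12.1 TPM.

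**Figure D1:**
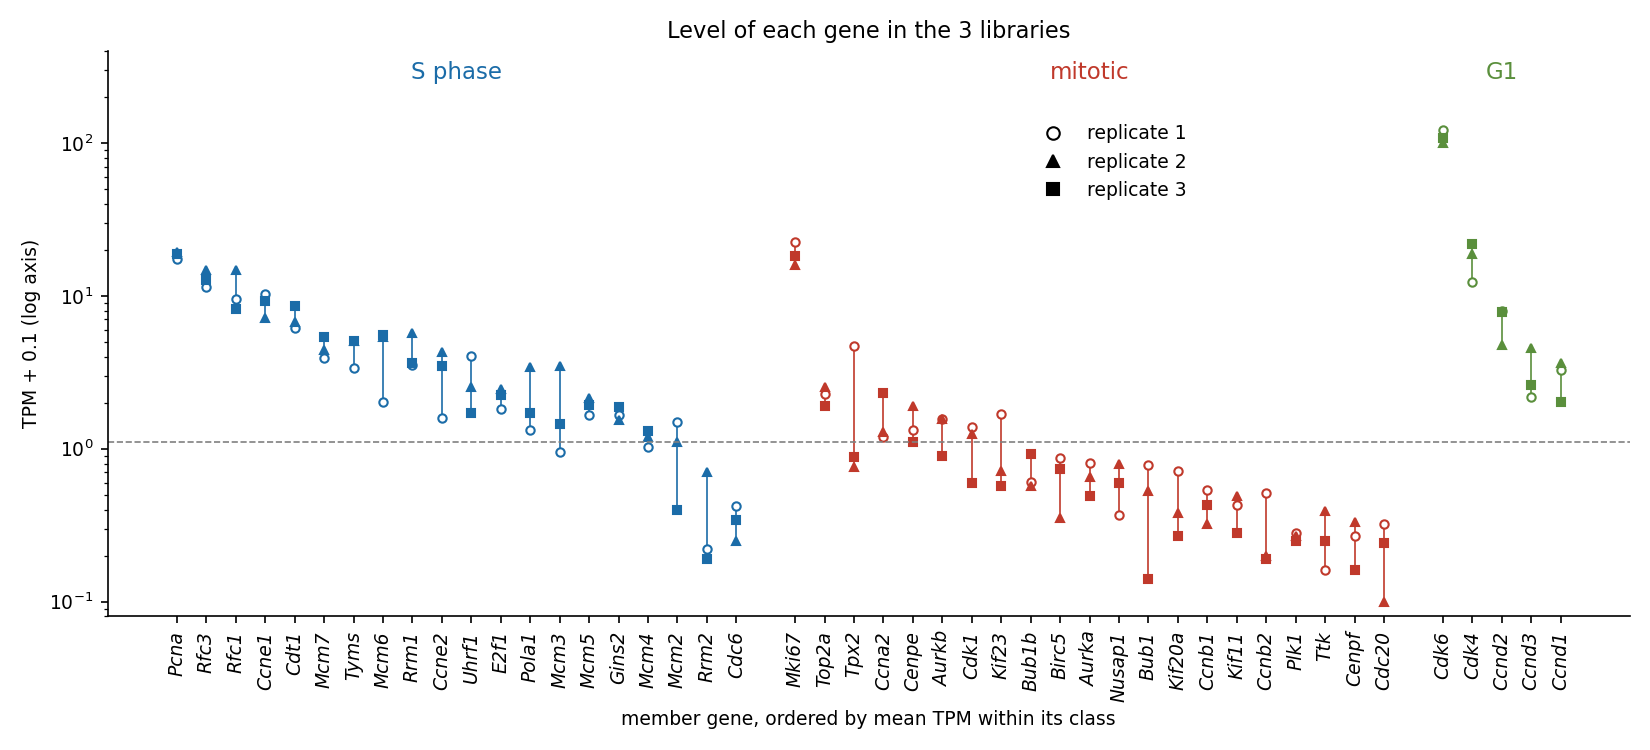
Level of each of the 46 genes in replicates 1, 2 and 3 (y axis, TPM + 0.1 on a log axis; x axis, genes by class and mean TPM; the dashed line is 1 TPM). The S phase genes fall gradually from Pcna at 18.5 to Cdc6 at 0.24 TPM on average, while among the mitotic genes Mki67 at 18.7 TPM stands alone above a group that lies near or under the line.

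The promoters differed between the classes in the letters the background names. They are shown for a helicase gene, the high mitotic gene and a pair of low mitotic genes, as the 250 bases before the RefSeq start (GRCm38.p6, equal in coordinates to the mm10 build of the files), 5′ to 3′ on the gene's strand, with matches in capitals. The motifs, sought on both strands, were the E2F site (TTT, then 2 letters each C or G, then CGC), the CHR element (TTTGAA or TTCGAA) and the CCAAT box (CCAAT, or ATTGG on the other strand).
Mcm6, chr1:128359706-128359955, minus strand: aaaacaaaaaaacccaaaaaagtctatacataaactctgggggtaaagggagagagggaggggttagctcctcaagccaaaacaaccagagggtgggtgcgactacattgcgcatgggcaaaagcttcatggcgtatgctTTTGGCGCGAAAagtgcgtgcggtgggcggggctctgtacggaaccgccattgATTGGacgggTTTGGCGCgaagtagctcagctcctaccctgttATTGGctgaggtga
Mki67, chr7:135716380-135716629, minus strand: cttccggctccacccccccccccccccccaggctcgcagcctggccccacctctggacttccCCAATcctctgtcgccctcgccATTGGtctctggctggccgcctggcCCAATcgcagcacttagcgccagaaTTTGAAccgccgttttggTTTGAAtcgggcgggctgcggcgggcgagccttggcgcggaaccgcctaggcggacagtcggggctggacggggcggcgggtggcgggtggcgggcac
Cdk1, chr10:69352913-69353162, minus strand: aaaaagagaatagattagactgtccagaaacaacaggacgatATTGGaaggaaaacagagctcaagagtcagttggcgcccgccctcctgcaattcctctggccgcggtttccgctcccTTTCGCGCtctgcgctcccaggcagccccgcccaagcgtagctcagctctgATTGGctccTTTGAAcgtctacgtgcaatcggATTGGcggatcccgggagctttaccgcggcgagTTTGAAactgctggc
Cdc20, chr4:118437344-118437593, minus strand: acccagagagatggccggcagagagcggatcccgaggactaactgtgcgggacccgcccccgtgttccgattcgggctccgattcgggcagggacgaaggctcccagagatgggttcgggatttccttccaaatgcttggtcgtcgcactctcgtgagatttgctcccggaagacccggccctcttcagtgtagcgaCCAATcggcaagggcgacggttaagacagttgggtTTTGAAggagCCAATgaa
The Mcm6 window holds 3 E2F matches, of which 1 pair overlaps on opposite strands at 110 to 99 bases before the start, and 2 CCAAT boxes. Mki67 holds 2 CHR elements and 3 CCAAT boxes and no E2F match. Cdc20, nearly silent here, holds the CHR element 18 to 13 bases before the start and 2 CCAAT boxes. The same letters thus stood before the mitotic gene highest in mean TPM and before a gene among the lowest. Cdk1 holds 2 CHR elements, 3 CCAAT boxes and 1 E2F match.

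RefSeq promoters were at hand for 37 of the 46 genes, 17 S phase, 17 mitotic and 3 G1. In the window from 250 bases before to 50 after the start, 8 of 17 S phase promoters held an E2F match (47.1%), beside 1 of 17 mitotic ones (Cdk1) and 2.32% of all 27025 promoters in the table. The 8 were Mcm3, Mcm5, Mcm6, Mcm7, Cdc6, Cdt1, Pola1 and Rfc3. The CHR element ran the other way, in 13 of 17 mitotic promoters (76.5%), 3 of 17 S phase ones (17.6%) and 19.4% of all promoters. CCAAT boxes were frequent in both, in 12 of 17 S phase and 15 of 17 mitotic promoters, beside 37.9% of all, and every one of the 13 mitotic promoters with a CHR also held a CCAAT box, a pairing seen in 7.70% of all promoters. Cdk4, Cdk6 and Ccnd3 held none of these letters in the window. By mean gene TPM the lowest S phase gene, Cdc6, held an E2F match, and the highest, Pcna, did not. Neither rank is firm: Rrm2, without a match, overlapped Cdc6, and Rfc1, also without, led over protein-coding transcripts at 6.42 TPM. A match describes letters and does not show that a factor bound there.

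**Figure D2:**
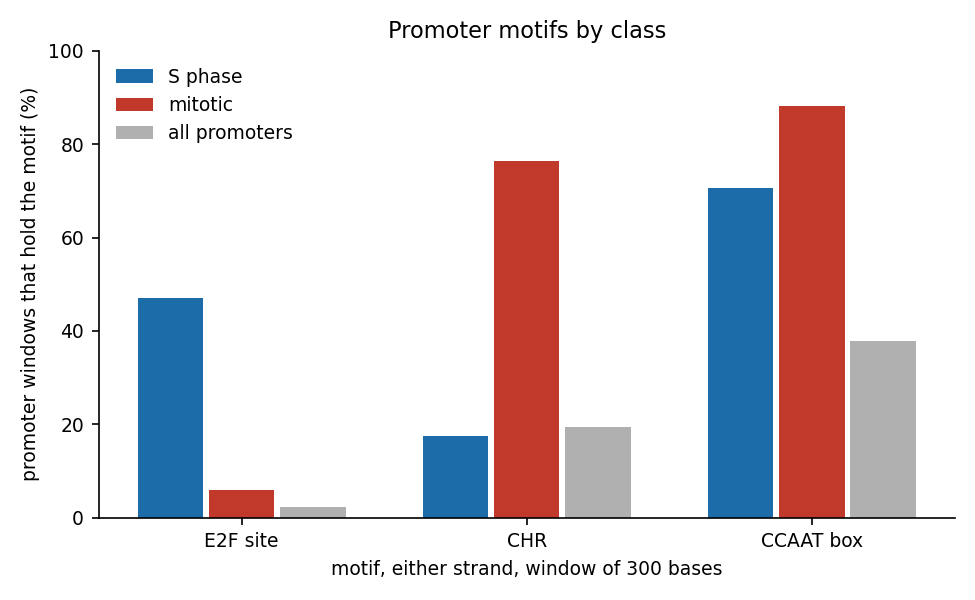
Share of promoter windows that hold each motif (y axis, percent; x axis, motif) for 17 S phase genes, 17 mitotic genes and all 27025 promoters. E2F matches stand out in the S phase bar at 47.1% and CHR elements in the mitotic bar at 76.5%, while CCAAT boxes are frequent in both.

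The 6 subunits of the MCM helicase (Mcm2 to Mcm7), which work as a ring of 1 copy each, were low and unequal. Mcm7 averaged 4.49 TPM, Mcm6 4.22 TPM and Mcm2 0.90 TPM, and 3 of the 6 reached 1 TPM in all libraries (Mcm5, Mcm6, Mcm7). Over protein-coding transcripts Mcm6 averaged 2.51, Mcm7 2.14 and Mcm2 0.30 TPM, so Mcm6 and Mcm7 are not ordered. Mcm6 stood at 1.92, 5.28 and 5.47 TPM in replicates 1, 2 and 3, low in the first and alike in the others. Mcm4 missed the threshold only in replicate 1, at 0.92 TPM, and Mcm3 likewise at 0.85 TPM, while Mcm2 missed it in replicate 3 at 0.30 TPM.

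Origin licensing split between its 2 loaders. Cdt1, which brings the helicase to origins, was at 6.01, 6.64 and 8.41 TPM, a mean of 7.02 ± 1.24 TPM. Retained-intron transcripts held 67.1 ± 4.27% of Cdt1 counts, and its protein-coding transcripts made 1.97 ± 0.43 TPM. Cdc6, the partner of Cdt1 in loading, was at 0.32, 0.15 and 0.24 TPM from 18, 8 and 11 counts. The ranges of this pair do not overlap in gene TPM. Gins2, a subunit of the active helicase, was at 1.60 ± 0.16 TPM.

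At the fork, Pcna, the sliding clamp that holds polymerases on DNA, was the highest S phase gene in gene TPM. It was at 17.4, 19.2 and 18.8 TPM, the 3 libraries close together. Over protein-coding transcripts Rfc1 was higher on average, at 6.42 against 5.57 TPM for Pcna. Rfc3, a subunit of its loader, was at 11.4, 14.7 and 12.5 TPM. The large loader subunit Rfc1 was at 9.42, 14.6 and 8.07 TPM, higher in replicate 2. Pola1, the catalytic subunit of polymerase alpha that starts each strand, was lower in gene TPM, at 2.05 ± 1.13 TPM. Over protein-coding transcripts Pola1 was at 1.22, 2.60 and 1.43 TPM and Rfc3 at 2.22, 2.38 and 3.73 TPM, so this pair overlaps. The read-based quantification described below placed Pola1 at 12.0 ± 0.705 TPM and Rfc3 at 12.4 ± 0.486 TPM.

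The supply of deoxynucleotides showed the same kind of split in gene TPM. Tyms, thymidylate synthase, averaged 4.40 ± 0.99 TPM, and Rrm1, the large subunit of ribonucleotide reductase, 4.17 ± 1.22 TPM. Rrm2, the small subunit whose level is known to follow S phase, was at 0.12, 0.60 and 0.09 TPM from 3, 10 and 3 counts. The exact 95% Poisson interval of 3 counts runs from 0.62 to 8.77 counts, so the 3 libraries cannot be ordered. Over protein-coding transcripts Tyms was at 0.18, 0.46 and 0.57 TPM and Rrm2 at 0.12, 0.25 and 0.09 TPM, so this pair overlaps. Rrm1 stayed above Rrm2 there, at 0.97, 1.37 and 1.13 TPM. Uhrf1, which carries DNA methylation through replication, was at 2.65 ± 1.16 TPM.

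Of the genes that open S phase, Ccne1, a cyclin E that activates CDK2, was at 10.2, 7.06 and 9.08 TPM, lowest in replicate 2. Its paralog Ccne2 was at 1.49, 4.21 and 3.37 TPM, lowest in replicate 1. The pair did not overlap in gene TPM, but in replicate 2 Ccne2 was the higher over protein-coding transcripts, at 3.59 against 3.00 TPM, and in counts scaled to a common library size (CPM), at 8.78 against 4.90 CPM. E2f1, an activating E2F, was at 2.08 ± 0.32 TPM with 55, 92 and 92 counts.

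Mki67 (chr7:135689784-135716361, minus strand) coats mitotic chromosomes and is widely used as a marker of cycling cells, and it stood far above the rest of its class. It was at 22.2, 15.9 and 18.0 TPM from 2702, 2346 and 3036 counts, and held 88.0%, 81.5% and 86.3% of all expected counts of the 21 mitotic genes. Its transcript is long, and its share of their summed TPM, which is scaled for length, was 54.1%, 54.3% and 61.6%. The next mitotic gene was 4.81, 6.56 and 8.10 times lower in TPM in replicates 1, 2 and 3. Its counts fell on 1 transcript, the 10061-base protein-coding Mki67-201, with 2343 of 2346 counts in replicate 2 and every count in replicates 1 and 3. The read-based quantification placed Mki67 at 23.9, 13.7 and 15.1 TPM, so both methods set it at this level.

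Top2a, the topoisomerase that untangles sister chromosomes, had the next highest mean, at 2.19, 2.42 and 1.81 TPM. Cenpe, a kinetochore motor, was at 1.22, 1.81 and 1.00 TPM, the last just at the threshold, and Ccna2, the cyclin A of S phase and G2, at 1.10, 1.18 and 2.22 TPM. Tpx2, a spindle assembly factor, was at 4.62, 0.66 and 0.78 TPM, high in replicate 1 alone. Of the 4.62 TPM, 2.87 came from 7.37 expected counts on a 358-base retained-intron transcript that had 0 counts in the other libraries, and protein-coding transcripts of Tpx2 made 1.28, 0.66 and 0.78 TPM.

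The kinases and cyclins that drive mitosis were low. Of 7 (Cdk1, Ccna2, Ccnb1, Ccnb2, Aurka, Aurkb, Plk1), only Ccna2 passed 1 TPM in all libraries. Plk1, the polo kinase, had 2, 5 and 5 counts, and Ccnb1, the main mitotic cyclin, 3, 5 and 7. The spindle checkpoint genes Bub1, Bub1b and Ttk and their target Cdc20 all stayed under 1 TPM in every library. Cdc20, the activator of the anaphase-promoting complex, had 1, 0 and 3 counts, where 0 counts allow up to 3, the limit of counting alone. Cenpf, a large kinetochore protein, had 2, 4 and 7 counts, at 0.15 ± 0.086 TPM. Of the 8 motors, spindle and kinetochore genes 1 (Cenpe) passed 1 TPM in all libraries. The motors Kif11 and Kif20a and the spindle protein Nusap1 averaged 0.30, 0.36 and 0.49 TPM, and the aurora kinases Aurka and Aurkb 0.55 and 1.25 TPM.

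The G1 genes were led by Cdk6, which with cyclin D phosphorylates the retinoblastoma protein. It was at 121, 98.9 and 108 TPM, above 94.6% of expressed protein-coding genes by its mean, and made up 44.8%, 37.5% and 41.1% of the summed TPM of all 46 genes. Its relative Cdk4 was at 12.3, 18.6 and 21.6 TPM, so Cdk6 lay 9.81, 5.31 and 5.0 times above it. The antisense genes Gm42435 and Gm17590 overlap Cdk6, with 221 and 253 counts in replicate 1 against 4806 for Cdk6, and whether counting used strand is not given in the deposited material used here. The D-type cyclins, their partners, were lower: Ccnd2 at 7.84, 4.63 and 7.70 TPM, Ccnd3 at 2.07, 4.45 and 2.50 TPM, and Ccnd1 at 3.19, 3.55 and 1.93 TPM. The values of Ccnd1 and Ccnd3 overlap, so this pair is not ordered. In gene TPM every value of Ccnd2 lay above every value of both, the nearest being 4.63 against 4.45 TPM. Over protein-coding transcripts that order failed in replicate 2, with Ccnd2 at 2.05 and Ccnd3 at 2.46 TPM.

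The gap between S phase and mitotic genes kept its sign under each way of computing the level, and its spread between libraries did not stay the same. With read-based TPM it was 1.78, 1.92 and 1.90, a mean of 1.87 ± 0.073. With protein-coding transcripts only it was 2.02 ± 0.31, with expected counts per fixed length of all exons 2.38 ± 0.45, and without Mki67 2.19 ± 0.75; these 3 were added after the data were seen. Replicate 1 gave the smallest difference on each of the 5 scales. Its mitotic median was not the highest on every scale. Read-based, that median was 1.09, 1.61 and 1.44 TPM in replicates 1, 2 and 3, and over protein-coding transcripts 0.26, 0.28 and 0.25 TPM. Among genes that passed 1 TPM alone, 15 S phase against 4 mitotic, the difference was 1.16 ± 0.14, since most mitotic genes were left out.

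**Figure D3:**
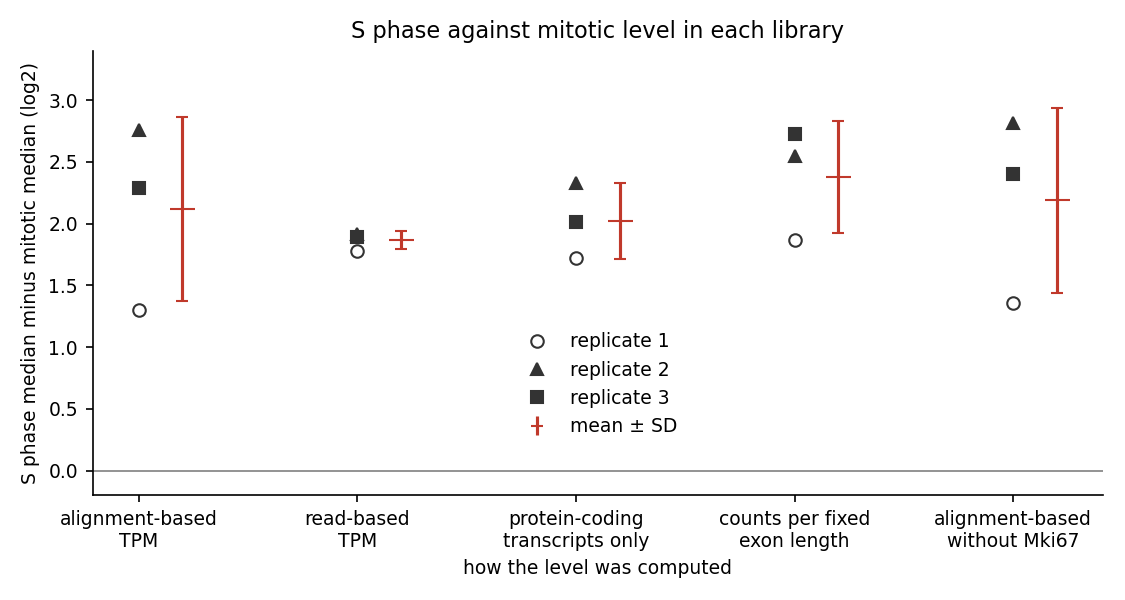
Difference between the S phase and mitotic medians in each library (y axis, log2 units; x axis, how the level was computed; red, mean ± SD of 3 libraries). All 15 points lie above 0, replicate 1 is lowest on every scale, and the read-based values lie closest together.

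Expected counts of some genes differed between the 3 libraries beyond counting error. In an edgeR Poisson fit across all genes with at least 10 counts, with Benjamini-Hochberg adjustment at 0.05, 58.0% of 17110 genes were called, and 61.5% of the protein-coding ones. Of the 45 list genes tested 21 were called: 11 of 20 S phase, 5 of 20 mitotic and 5 of 5 G1 genes, with Cdc20 too low to test. The share depends on counts: 5 of the 19 list genes with 10 to under 100 counts were called, beside 28.8% of protein-coding genes of that depth, and 12 of the 22 with 100 to under 1000, beside 57.0%. All 4 with 1000 or more were called, beside 85.3%. At each depth the list genes were thus near the background, and the test compares libraries, not conditions. Without replicate 1 the number called fell to 13 of 42 list genes tested, beside 4482 of 16238 genes in all (27.6%).

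By that fit Mki67 varied most in relation to counting error, at 261, 132 and 179 CPM in replicates 1, 2 and 3, with edgeR adjusted p = 2.5e-124. Cdk6 varied in the same order of libraries, at 463, 306 and 400 CPM (edgeR adjusted p = 1.4e-100). Ccne2 was at 3.47, 8.78 and 8.24 CPM and low in replicate 1 (edgeR adjusted p = 3.1e-07), while Ccne1 was at 9.74, 4.90 and 9.12 CPM and low in replicate 2 (edgeR adjusted p = 1.1e-06). Tpx2 was at 6.46, 2.03 and 2.71 CPM, high in replicate 1 (edgeR adjusted p = 5.3e-08), and Birc5, the survivin gene of the chromosomal passenger complex, at 2.22, 0.68 and 1.12 CPM (edgeR adjusted p = 0.0053). No single library was low for all: replicate 2 was lowest in CPM for 10 of the 20 S phase genes and 19 of all 46, beside 27.5% of expressed protein-coding genes. Replicate 1 was lowest for 6 of the 20 and 15 of the 46, beside 44.4%. These shares were not compared by a test. E2f1 and Rfc3 were the steadiest S phase genes, with an SD of log2(CPM + 0.5) of 0.029 and 0.070.

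Transcript kinds could be described for the 26 genes with at least 20 counts in every library, 17 S phase, 4 mitotic and 5 G1. Over 20% of expected counts lay outside protein-coding transcripts in all 3 libraries for 10 of the 26, beside 47.3% of 9469 protein-coding genes of that depth. By TPM, which gives short transcripts more weight, it was 17 of the 26, beside 64.9%. The median share outside was 18.8 ± 3.66% for S phase genes, 3.59 ± 5.16% for the 4 mitotic ones and 22.4 ± 1.49% over those 9469 genes. Transcripts with a retained intron, a class annotated as unspliced in part, had a median share of 17.3 ± 4.74% in the S phase genes, 0.51 ± 0.89% in the mitotic ones and 10.2 ± 0.77% over the 9469. Such a transcript is annotated for 14 of the 17 S phase genes, 2 of the 4 mitotic ones and 6042 of the 9469. The remaining genes can have no such share, so these medians in part reflect the annotation. Counts assigned by a model to overlapping transcripts are uncertain, and reads of introns no transcript holds were not counted.

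Tyms had the highest share outside protein-coding transcripts, 94.1 ± 3.93% of counts, with 46.4, 102 and 134 counts on the retained-intron Tyms-206. The read-based table differed: it gave the protein-coding Tyms-201 215, 594 and 506 counts, where the alignment-based table gave 6.57, 0 and 15.7, and left 38.6 ± 4.51% outside. For Rfc3 both tables gave similar shares, 78.2 ± 5.57% and 76.7 ± 8.10%. Gins2 had 73.0 ± 15.7% outside, on 1 retained-intron transcript, and it lies opposite to Gse1, whose reads may be counted there if strand was not used. Cdk4, Ccnd3 and Cdt1 were also mostly outside, at 71.3 ± 3.99%, 69.9 ± 5.84% and 67.1 ± 4.27%. For Mki67, E2f1 and Mcm4 only protein-coding transcripts are listed, so their share outside is 0% by annotation and measures nothing. Pcna was split evenly, with 50.3 ± 3.35% outside, and its protein-coding transcript alone made 5.57 ± 0.73 TPM of the 18.5.

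**Figure D4:**
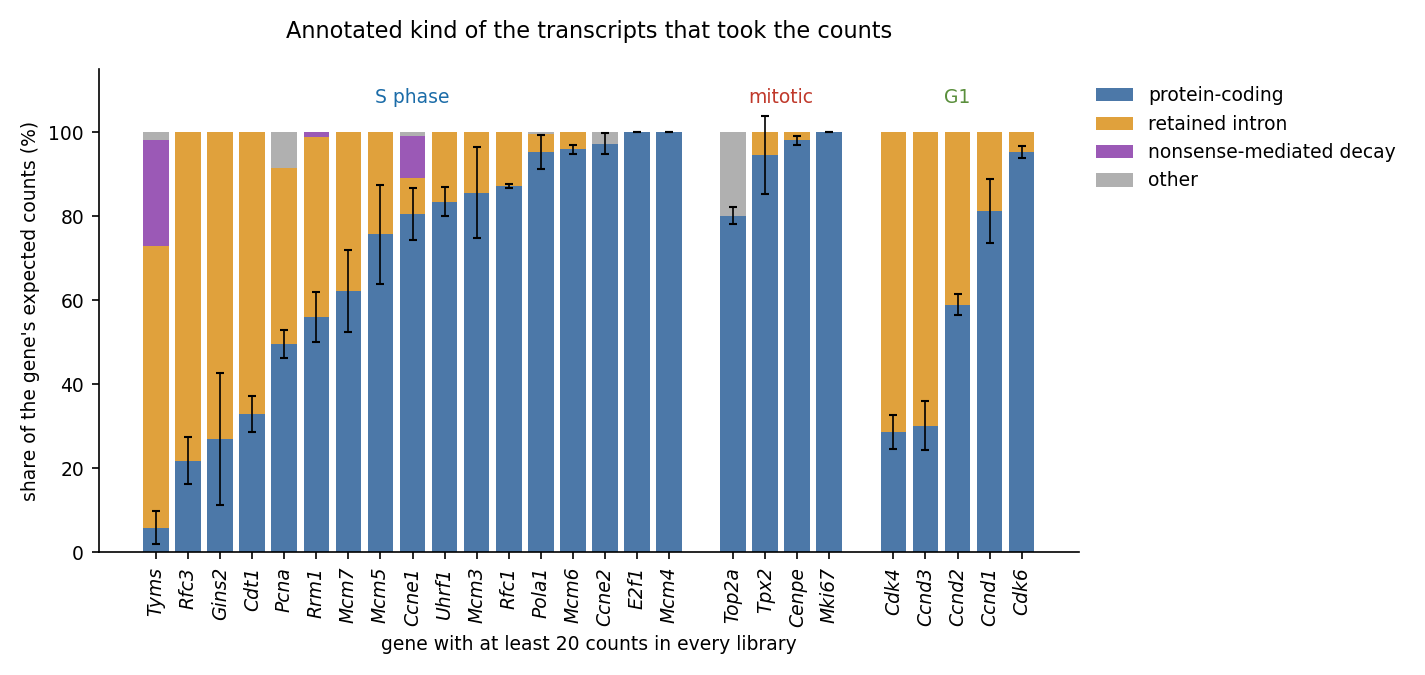
Share of each gene's expected counts by annotated kind of transcript (y axis, percent, mean of 3 libraries; bars on the protein-coding part are SD; x axis, the 26 genes with at least 20 counts in every library). Tyms at 94.1% and Rfc3 at 78.2% lie mostly outside protein-coding transcripts, while Mki67, E2f1 and Mcm4 have only protein-coding transcripts listed, which fixes their bars.

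The read-based table, made from the same libraries without that alignment, put several mitotic genes far higher. Within libraries the median of the log2 ratio of read-based to alignment-based TPM (+ 0.1) was 1.06 ± 0.31 for mitotic genes, 0.47 ± 0.072 for S phase genes and 0.39 ± 0.061 for expressed protein-coding genes. A read-based level at least 2-fold the other in all 3 libraries was seen for 11 of the 45 genes with at least 10 counts, 6 mitotic, 4 S phase and 1 G1, beside 14.0% of 12193 such protein-coding genes. None of the 6 MCM genes was among them. Low levels enter this ratio: with a pseudocount of 1 the mitotic median was 0.44 ± 0.061 and the S phase one 0.35 ± 0.060.

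Kif23, a kinesin that builds the midbody, differed most. It was at 30.6, 54.0 and 66.2 TPM read-based, which would make it the highest mitotic gene, and at 1.59, 0.61 and 0.47 TPM alignment-based. The gap lay in the 632-base processed transcript Kif23-202, with 257, 568 and 733 read-based counts and 0 alignment-based counts in all 3 libraries, while the 3398-base protein-coding Kif23-201 had 4.38, 5.60 and 0 read-based counts. Birc5 was at 3.90, 6.65 and 5.95 TPM read-based and 0.77, 0.25 and 0.64 TPM alignment-based, with 227, 549 and 512 read-based counts on Birc5-202. Cdk1, the central mitotic kinase, was at 6.22, 13.6 and 9.94 TPM against 1.29, 1.15 and 0.50 TPM, through the 695-base Cdk1-207. Pola1 was at 12.7, 11.9 and 11.3 TPM against 1.22, 3.34 and 1.60 TPM, and Ttk, a checkpoint kinase, at 0.65, 2.20 and 1.44 TPM against 0.06, 0.29 and 0.15 TPM.

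Some of these transcripts hold letters that are widespread among other genes' transcripts. The 30 letters of Kif23-202 and of Birc5-202 found in the most other genes are printed in capitals, since a read from them fits many places; both lie in an exon of the transcript named.
Kif23-202, bases 563 to 592, chr9:61915945-61915974, minus strand: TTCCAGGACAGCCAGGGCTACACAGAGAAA
Birc5-202, bases 2454 to 2483, chr11:117854863-117854892, plus strand: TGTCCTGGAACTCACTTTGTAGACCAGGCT
The Kif23 run occurred, on either strand, in transcripts of 729 other genes, and the Birc5 run in those of 624. Both resemble the B1 repeat, a short interspersed element with many copies in the mouse genome. Of the words of 30 letters in Kif23-202, 5.97% occurred in another gene's transcripts. Over the 11 genes of at least 2-fold the median share was 3.12%, beside 2.94% for the other 35 genes and 0.793% over 12179 protein-coding genes, and for Cdk1-207 and Pola1-204 the share was 0%. Only exact matches in annotated transcripts were counted, so a share of 0% does not show that a transcript holds no repeat. Over those 12179 genes, a level at least 2-fold higher read-based was seen for 9.65% of genes with under 1% of shared words, 19.9% with 1 to under 10%, 19.8% with 10 to under 25% and 15.3% with 25% or more. The part of repeats in the gap was not tested.

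**Figure D5:**
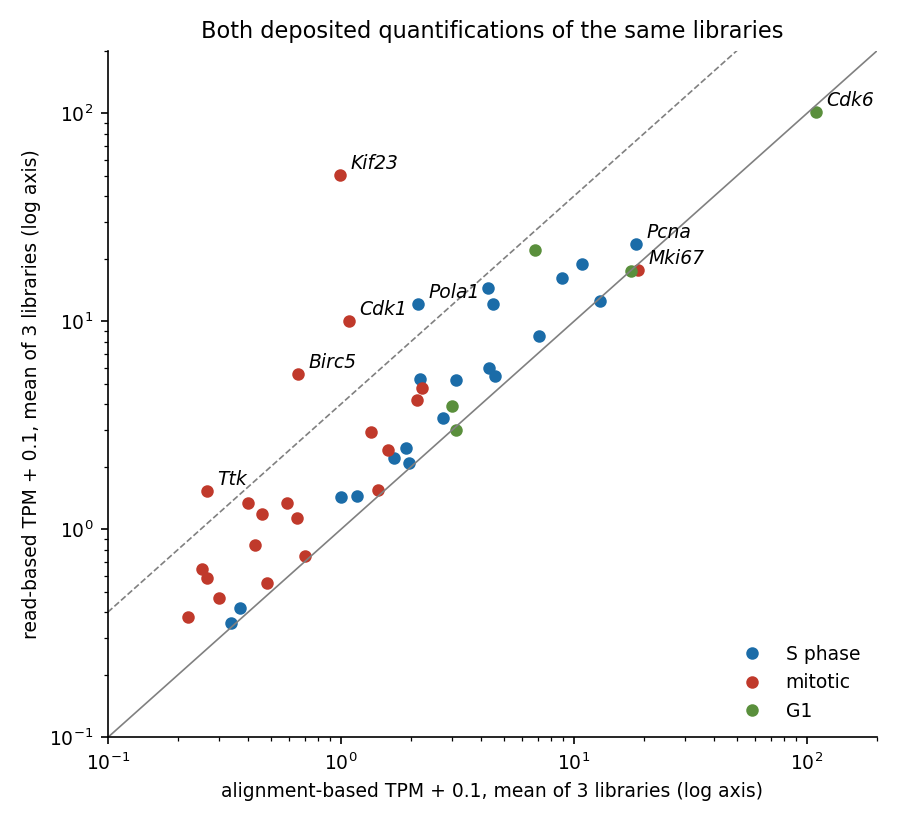
Mean read-based level against mean alignment-based level of the 46 genes (both axes TPM + 0.1, log axes; full line, equality; dashed line, 4-fold higher read-based). Kif23, Cdk1, Birc5, Pola1 and Ttk lie above the dashed line, while Mki67, Pcna and Cdk6 lie near equality.

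Other genes of the same pathways, from lists written beside the 46, showed the same order. These lists too were chosen with earlier results of these data known, so they are no independent support for it. Of 45 further replication genes 30 reached 1 TPM in all libraries, and of 50 further mitosis genes 10 did, beside the 42.0% of all protein-coding genes. Their medians were 3.12 ± 0.81 and 0.63 ± 0.048 TPM. The replication genes were led by Pold3, a subunit of polymerase delta that also serves repair, at 72.5, 75.9 and 68.6 TPM, and by the origin recognition subunits Orc4 (60.1 ± 18.9 TPM) and Orc3 (42.3 ± 11.3 TPM), then the clamp loader subunit Rfc2 (26.0 ± 5.01 TPM). The mitosis genes were led by the condensin subunit Smc4 at 22.6, 40.2 and 42.4 TPM, the passenger protein Incenp (20.7 ± 3.79 TPM), securin Pttg1 (18.7 ± 4.22 TPM) and the checkpoint protein Bub3 (12.3 ± 3.89 TPM). Kif2c, a kinesin that takes microtubules apart, was lowest at 1, 0 and 0 counts.

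Of 36 regulators of entry into and exit from the cycle 28 had 1 TPM or more in all libraries. Samhd1, which breaks down deoxynucleotides in non-cycling cells, was at 471, 652 and 503 TPM, far above Rrm1, Rrm2 and Tyms, which supply them. Cdkn1a, the p21 inhibitor of cyclin-dependent kinases, was at 44.9, 51.6 and 39.7 TPM. Fzr1, which turns the anaphase-promoting complex on in G1, was at 30.9 ± 2.96 TPM, and Rbl1, the p107 relative of the retinoblastoma protein, at 27.1 ± 7.82 TPM. Cdkn2a, the p16 and p19 locus, had 0 counts in all 3 libraries.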

How the data were processed

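Chromatin RNA of 3 macrophage libraries was read from tables as deposited, aligned to mm10 with GENCODE M21 per the deposited notes. The gene and transcript tables give expected counts and TPM in the columns RSEM writes, per the file headers, and are called alignment-based. A further transcript table, in the columns kallisto writes per the file headers, gives estimated counts and TPM and was made by the authors from reads directly. No version or strand setting is stated in the material used here; 22 of the 46 genes overlap another annotated gene, 18 of them on the opposite strand. Depth was 10293545 to 17820066 expected counts, and intervals cover counting error only. The 46 genes and all lists were chosen with earlier results of these data known. Named genes follow a rule on level, spread and isoform share: per class the 5 highest, the 2 lowest and the 2 of highest spread, all G1 genes, genes whose methods differ by over 2 log2 units, the 3 with most counts outside protein-coding transcripts, and the 4 highest and the lowest of each other list, of which 1 gene is not reported here. Others are named for their role. Rounded counts were fitted in edgeR 4.0.16 (R 4.3.3; TMM, Poisson, intercept only), with DESeq2 1.42.0 size factors as an alternative. The fit was tested on simulated counts. Promoters came from RefSeq, GRCm38.p6. Alternatives covered thresholds, pseudocounts, scalings, the other table and leaving out each replicate.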

Additional observations from a re-analysis of the deposited data

How the results depend on the processing

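Of 80 alternative values of the main results 62 stayed close to the value reported (counts within 1.5 times, levels within 1 SD). Most of the 80 are counts or shares, which cannot change sign. The S phase minus mitotic differences and the read-based to alignment-based ratios could have, and none did. At a threshold of 5 TPM the genes passing were 5 S phase, 1 mitotic, 2 G1 and 8 in all. At 0.5 TPM 7 mitotic genes passed, with read-based TPM 9, and with TPM rescaled over genes of at least 200 bases without mitochondrial genes 9. That rescaling raised every level by 1.56, 1.13 and 1.30 log2 units in replicates 1, 2 and 3. Over protein-coding transcripts only, an alternative added after the data were seen, 9 S phase, 1 mitotic and 14 genes in all passed. The matching shares of all protein-coding genes were not computed at these settings. The S phase minus mitotic difference was 1.26 with a pseudocount of 1 and 1.16 among genes that passed 1 TPM, and 1.80 to 2.53 on leaving out each replicate. The number of genes beyond counting error was 10 to 14 on leaving out each replicate, which also leaves fewer counts and genes to test. It was 13 of 42 without replicate 1, 10 of 39 without replicate 2 and 14 of 40 without replicate 3. Over all genes tested 27.6%, 51.3% and 49.2% were called in turn. The S phase share outside protein-coding transcripts was 18.8% by counts against 51.4% by TPM, which weights short transcripts more. With a pseudocount of 1 the read-based to alignment-based medians were 0.35 for S phase and 0.44 for mitotic genes. In the 250 bases before the start alone, 7 of 17 mitotic promoters held a CHR element, since the others lie after it. There 3 of 17 S phase promoters and 17.4% of all promoters held 1. DESeq2 size factors called the same number of genes as TMM, 21. No paired analysis was possible because the 3 libraries form 1 group. Mitotic genes with under 10 counts per library cannot be ordered at this depth, and replicate 1 has the fewest counts.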

Other observations

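Beyond the 46 genes, a few cell cycle genes of the wider lists also differed widely between the quantifications; they were chosen after their values were seen. E2f7, a repressing E2F, had 4, 6 and 1 alignment-based counts and 0.14 ± 0.064 TPM, and 23.4 ± 9.55 TPM read-based. Cdc25c, the phosphatase that activates CDK1, was at 0.050 ± 0.062 TPM and 8.96 ± 5.58 TPM, Hmmr, a spindle protein, at 0.053 ± 0.032 TPM and 4.79 ± 0.47 TPM, and Kif2c at 0.010 ± 0.017 TPM and 3.89 ± 1.97 TPM.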
